A study of Mus musculus with 12 samples.

Results

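Histamine and serotonin are the amines that rodent mast cells make, pack into granules and release, and 8 genes of their synthesis, vesicle loading, uptake and breakdown were followed here in cultured mouse mast cells. The genes were Hdc, Tph1 and Ddc (synthesis), Slc18a2 (vesicle loading), Slc6a4 (uptake) and Hnmt, Maoa and Maob (breakdown). They were chosen by exact gene symbol, which gave 11 of 45137 probe sets, 7 of 22626 on an Affymetrix MOE430A array (chip A) and 4 of 22511 on a MOE430B array (chip B). The cells came from marrow of the femur and fibula and were expanded in culture with IL-3 (interleukin-3), a cytokine that sustains mast cells and related myeloid lineages. Mature mast cells (M2, M4 and M6) had been cultured for 57 to 110 days, and mast cell precursors (M1, M3 and M5) for 14 to 16 days. M6 and M1 were labelled female and the other cultures male, and the mouse strain is not given in the sources used here. Each of the 6 cultures was read once on each chip. The labels do not say whether cultures shared an animal, so the p-values measure the spread between these cultures. Purity was put at about 80%, with macrophages, monocytes or stromal cells listed as what else a culture could contain.

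Histamine arises in a single step, when histidine decarboxylase (Hdc) removes the carboxyl group of histidine. Serotonin needs a pair of steps, hydroxylation of tryptophan by tryptophan hydroxylase (Tph1 outside the nervous system) and decarboxylation by aromatic amino acid decarboxylase (Ddc). The vesicular monoamine transporter Slc18a2, also called VMAT2, carries both amines into secretory granules, and the plasma membrane transporter Slc6a4 takes serotonin up from outside. Inside cells histamine is inactivated by histamine N-methyltransferase (Hnmt), and monoamine oxidases A and B (Maoa and Maob) oxidise serotonin and other amines. Mast cells and basophils are the best known histamine stores among blood cells, and rodent mast cells hold serotonin as well.

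The promoter windows of Hdc, Tph1 and Slc18a2 are printed because Hdc was the gene whose signal differed between the stages, while Tph1 and Slc18a2 were bright at both and did not pass the test. Each window runs from 250 bases before to 50 bases after a transcript start, 5′ to 3′, from RefSeq on GRCm38.p6. Hdc lies at chr2:126618629-126618928 (minus strand), Tph1 at chr7:46672488-46672787 (minus strand, the upstream of 2 starts in the table), and Slc18a2 at chr19:59260628-59260927 (plus strand). Capitals mark words bound by GATA factors in general, searched on both strands. The words AGATAA and AGATAG begin with the base A, and the words TGATAA and TGATAG begin with the base T. GATA2, a transcription factor of mast cells, is known to be needed for Hdc expression in mouse mast cells.
Hdc: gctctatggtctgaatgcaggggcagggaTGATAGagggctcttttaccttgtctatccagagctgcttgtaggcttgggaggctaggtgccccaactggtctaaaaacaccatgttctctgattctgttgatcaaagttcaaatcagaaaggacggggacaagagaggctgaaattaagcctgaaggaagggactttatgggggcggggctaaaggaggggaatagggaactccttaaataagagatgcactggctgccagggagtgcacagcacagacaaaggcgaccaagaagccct
Tph1: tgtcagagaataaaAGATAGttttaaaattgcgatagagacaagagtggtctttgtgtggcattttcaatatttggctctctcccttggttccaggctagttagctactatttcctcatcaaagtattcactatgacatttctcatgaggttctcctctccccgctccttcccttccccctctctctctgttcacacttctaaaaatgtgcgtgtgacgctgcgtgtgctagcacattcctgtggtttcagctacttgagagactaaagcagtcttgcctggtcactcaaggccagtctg
Slc18a2: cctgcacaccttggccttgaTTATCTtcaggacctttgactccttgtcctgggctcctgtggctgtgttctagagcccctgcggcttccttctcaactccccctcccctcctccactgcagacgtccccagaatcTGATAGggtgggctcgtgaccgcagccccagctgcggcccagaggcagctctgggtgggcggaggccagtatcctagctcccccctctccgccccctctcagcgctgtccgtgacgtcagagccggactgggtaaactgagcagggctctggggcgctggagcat

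The Hdc window held 1 such word, 221 bases before the start, the Tph1 window 1, 236 bases before, and the Slc18a2 window 2, at 230 and 115 bases before. RefSeq windows were at hand for 7 of the 8 genes, 9 windows in all, and 5 of the 9 held a GATA word, against 29.8% of all 32841 promoter windows of this length. The other 2 were the windows of Slc6a4 and Maoa, and the window of the second Tph1 start, not printed, held none. The GC box word GGGCGG was found in 5 of the 9 windows, Hdc and Slc18a2 among them (35.7% of all windows). The E-box words CACGTG and CATGTG were found in 1 window, that of Slc6a4 (20.4% of all), and the TATA box word TATAAA in 1, a Ddc window (13.6% of all). The GC box, E-box and TATA box words were also searched on both strands. The Ddc match lay on the opposite strand, so that the window reads TTTATA, 68 bases before the start. No words found in these windows overlapped. These matches describe letters in a window, and binding was not measured.

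Signal was the MAS5 value of a probe set on a linear scale. Before log2 was taken, signals were raised to a floor, the 30th percentile of the chip (247 for chip A and 359 for chip B). A set was tested when 3 or more of the 6 arrays exceeded the chip's median signal (582 for chip A and 864 for chip B). Of the 11 sets 7 were tested, from 6 genes, and the sets of Slc6a4 and Hnmt, a second set of Hdc and a second set of Ddc were too dim. Of the 7, 1 was lower in the mature cultures at an adjusted p under 0.05 (limma), 0 were higher and 6 did not pass. The set that passed, for Hdc, was on chip A, where 0.527% of 11576 tested sets passed, 0.441% lower and 0.0864% higher. Chip B, with 3 of the 7 sets, had 0.0926% of 11880 tested sets past the test, 0.0673% lower and 0.0253% higher. The 8 genes likewise had 1 of 7 sets at an unadjusted p under 0.05, against 6.59% of the sets of chip A and 6.42% of those of chip B. In 0 of the 7 sets did all mature cultures lie above all precursors, a pattern found in 6.14% of sets of chip A and 6.17% of sets of chip B. In 2, those of Hdc and Maob, all lay below, as in 6.06% of sets of chip A and 5.83% of sets of chip B. The median log2 difference of the 7 sets was 0.20, against 0.018 for chip A and 0.0040 for chip B over all tested sets.

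**Figure D1:**
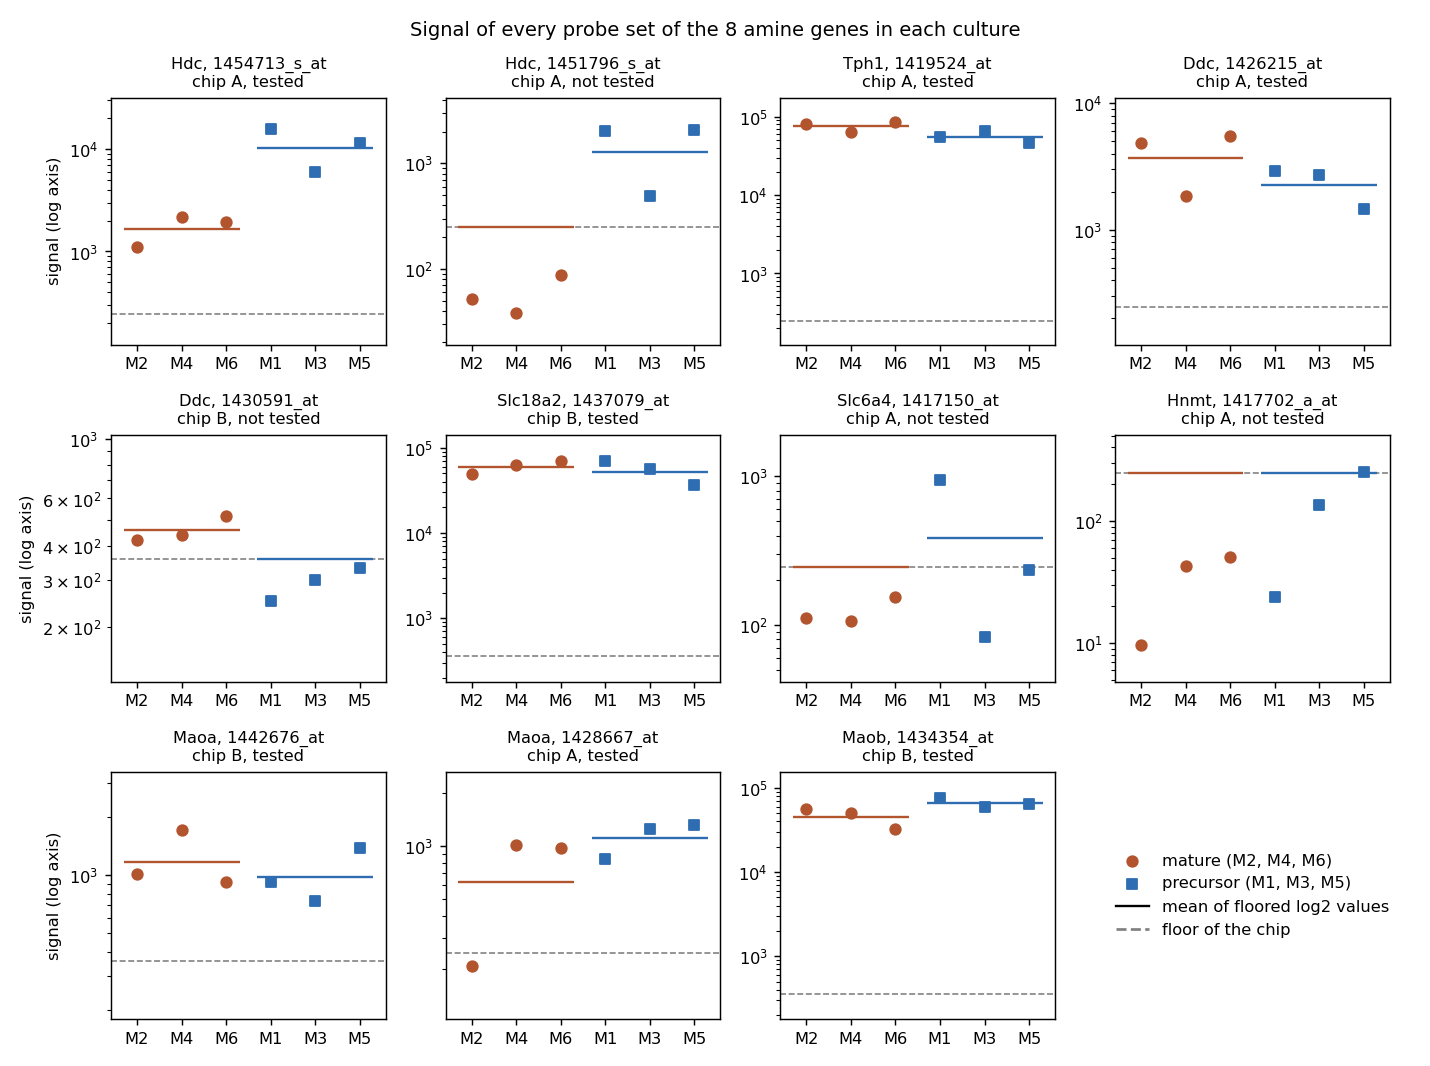
Signal (log axis) of the 11 probe sets of the 8 genes in each culture, mature cultures (circles) left of precursors (squares), with the mean of the floored log2 values as a line and the chip's floor dashed. In both Hdc panels the 3 mature cultures lie below the 3 precursor cultures, while Tph1, Slc18a2 and Maob are far above the floor in all 6.

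Hdc fell in the mature cultures, while the serotonin enzymes did not pass the test. The brighter Hdc set (1454713_s_at, chip A) had a signal of 1117 in M2, 2153 in M4 and 1931 in M6, against 15706 in M1, 5945 in M3 and 11444 in M5. Every mature culture lay below every precursor culture, a separation in this direction that 6.06% of all tested sets on chip A showed. Its log2 signal averaged 10.70 ± 0.51 in the mature cultures and 13.32 ± 0.71 in the precursors (SD, n = 3 each), a log2 difference of -2.62 ± 0.38 (SE; 95% interval -3.45 to -1.78; adjusted p = 0.0134, limma) or a 6.13-fold lower level. By p it ranked 25th of the 11576 sets. The lowest precursor culture, M3, was still 2.76-fold above the highest mature culture, M4. The call was lost without M2 (log2 difference -2.33, adjusted p = 0.0557), without M5 (-2.53, adjusted p = 0.0621) and with no filter on dim sets (-2.62, adjusted p = 0.396).

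The dimmer Hdc set (1451796_s_at, chip A) was not tested, since 2 of 6 arrays lay above the median. Its signal was 51.3 in M2, 38.1 in M4 and 86.6 in M6, all under the floor, against 2013 in M1, 487 in M3 and 2093 in M5. Taken against the floor, the mature cultures were at least 5.15-fold lower, and in both Hdc sets M3 was the lowest precursor. With no filter on dim sets the adjusted p of the dimmer set was 0.690 (limma). The suffix s in the names of both sets means, in the maker's scheme, that their probes may match more than 1 transcript.

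Since the stages do not overlap for Hdc, its difference is negative in any subset of the cultures, and only its size can vary. On fluidics station 1, which washed M2 and M1, the log2 difference of the brighter set was -3.81, and on station 2, with M4 and M6 against M3 and M5, it was -2.02. It was -3.02 in the female cultures and -2.41 in the male cultures, a stage by sex difference of -0.61 on the log2 scale (adjusted p = 0.893, limma). That test rests on 1 female culture a stage, so it says little about whether the sexes differ. With the station as a block the adjusted p was 0.0202, and with sex as a block 0.00794 (limma). The added control transcript Phe divided the cultures into a set with a low ratio of 5′ to 3′ signal (M4, M6 and M1) and a set with a high ratio (M2, M3 and M5). In those sets the Hdc difference was -2.95 and -2.88, and with the set as a block the adjusted p was 0.00911 (limma), a check added after the data were seen.

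Measures of RNA quality differed between the stages beside Hdc. The ratio of 3′ to 5′ signal of the beta-actin control sets on chip A was 9.73 to 10.1 in the mature cultures and 4.81 to 7.04 in the precursors, without overlap. That of Gapdh was 12.8 to 19.3 in the mature cultures and 9.11 to 13.5 in the precursors, which overlap. On chip B neither ratio overlapped, with beta-actin at 8.66 to 10.8 in the mature cultures and 4.87 to 7.25 in the precursors, and Gapdh at 16.8 to 22.0 in the mature cultures and 9.44 to 13.7 in the precursors. A higher ratio is known to accompany more degraded or less fully copied RNA, and its part in the results on either chip was not tested. The array of M6 stood apart in the Cre hybridisation control (347165 on chip A, against 108660 to 150867 on the others), and without M6 the Hdc difference was -2.72 (adjusted p = 0.0388, limma).

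Some markers of other myeloid cells also fell in the mature cultures. Of 14 macrophage and monocyte markers 12 were measured, and 6 fell and 0 rose, with a summed chip A signal of 8756 to 10900 in the mature cultures and 36705 to 80607 in the precursors. Of 12 neutrophil and granulocyte precursor markers 6 were measured, and 2 fell and 0 rose, with summed signals of 3899 to 6542 in mature cultures and 83822 to 322164 in precursors. The lowest precursor sum, in M3, came mainly from Chil3 (56623) and Ctsg (23765), and the other 9 chip A markers of the list were no higher in M3 than in the highest mature culture. No chip A marker of either list was under the floor in all 6 cultures. The 12 mast cell markers gave sums of 534948 to 911737 in the mature cultures and 538929 to 645994 in the precursors, and 0 of 11 measured passed. At an unadjusted p under 0.05 (limma) there were 2, Tpsab1 lower and Cma1 higher in the mature cultures. None of the 12 was under the floor in all 6 cultures. Gata2, which is among them, had a log2 difference of 0.29 ± 0.27 (SE), with an adjusted p of 0.902 in limma. The part of GATA2 in the Hdc result was not tested. Of 8 stromal markers 1 of 3 measured fell, Igfbp4, with a log2 difference of -2.09. Col1a2 (0.17) and Sparc (0.33) did not pass, and the median of the stromal list was 0.17. Of platelet and megakaryocyte markers 0 of 7 passed (3 unadjusted, Pf4 lower and Gp5 and Vwf higher), and of eosinophil markers 0 of 1 (0 unadjusted). In bulk RNA, fewer cells of a type and less RNA per cell cannot be told apart, and the part of these cells in the Hdc signal was not tested.

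Basophils, which store histamine too, had 5 of 7 markers measured and 0 past the test (2 unadjusted), with sums of 2470 to 4589 in the mature cultures and 4514 to 44045 in the precursors. Their protease Mcpt8 had a signal of 1723 in M2, 1925 in M4 and 125 in M6, against 41656 in M1, 1502 in M3 and 24177 in M5 (log2 difference -3.62 ± 1.10, SE; adjusted p = 0.351, limma). The sums of M1 and M5 came mainly from Mcpt8. For Mcpt8, M3 lay within the range of the mature cultures. Cd200r3, a receptor of basophils and mast cells read on chip B and so not in the sum, differed in this, with a signal of 11751 in M2, 6184 in M4 and 6401 in M6, against 15546 in M1, 16068 in M3 and 17772 in M5 (adjusted p = 0.265, limma). All 3 precursors, M3 included, lay above all mature cultures for Cd200r3, as they did for Hdc. That separation was found in 5.83% of all tested sets on chip B and 6.06% on chip A. Of the other measured basophil markers, Cd69 had a log2 difference of 0.56 ± 0.33, Itga2 0.089 ± 0.51 and Il4 -0.25 ± 0.35 (SE). The median of the basophil list was -0.25. The part of basophils in the Hdc result was not tested. Pf4, a chemokine of platelets and megakaryocytes, also varied among the precursors, at 249 (M2), 357 (M4) and 512 (M6), against 16317 in M1, 848 in M3 and 8756 in M5 (adjusted p = 0.112, limma). Gp5 and Vwf, of the same list as Pf4, went the other way, at 1.20 ± 0.35 and 1.22 ± 0.42 (log2, SE). Their adjusted p was 0.322 and 0.493 in limma, and the list median was 0.070. Among the precursors M3 was the lowest for Hdc, Mcpt8 and Pf4, and M5 for Gp5 and Vwf.

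**Figure D2:**
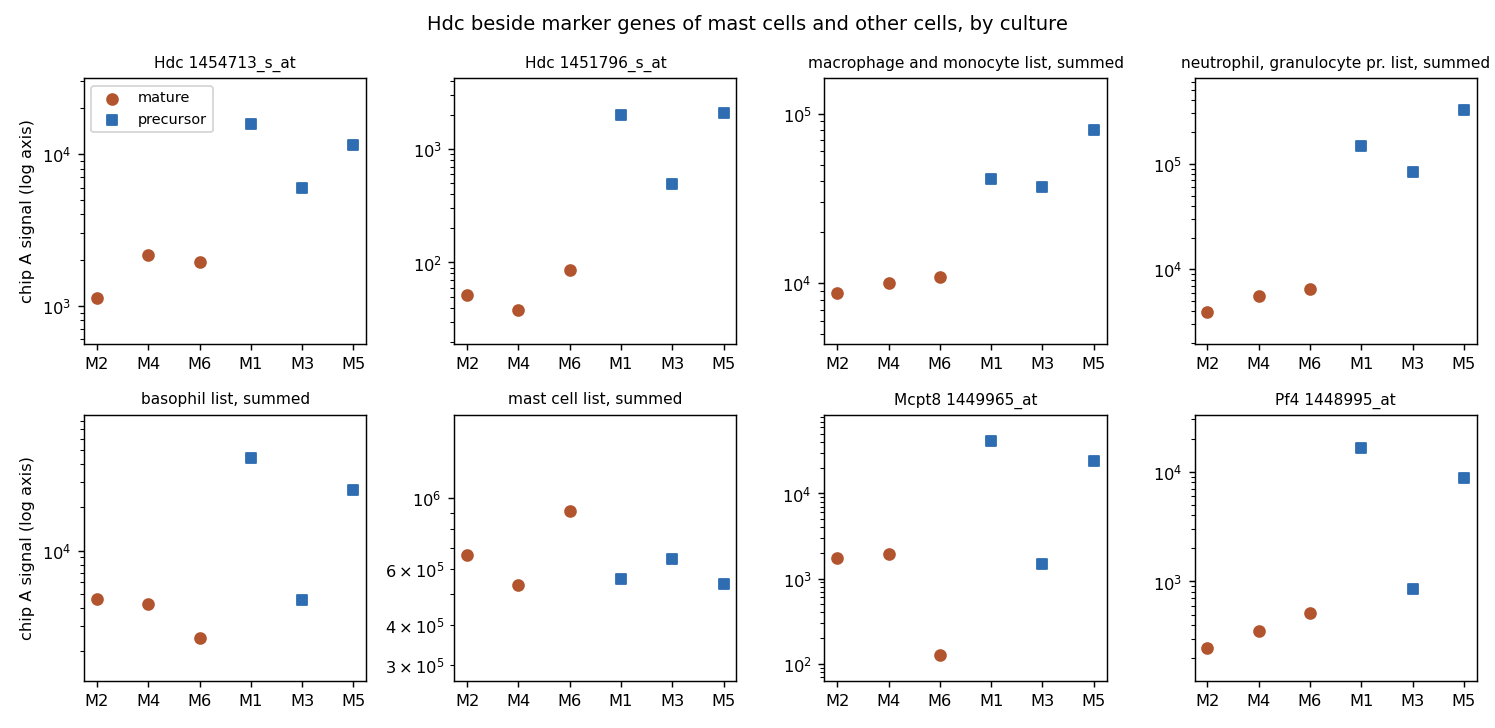
Chip A signal (log axis) by culture of both Hdc sets, of summed marker lists (macrophage and monocyte, neutrophil and granulocyte precursor, basophil, mast cell) and of Mcpt8 and Pf4, mature cultures (circles) left of precursors (squares). M3 lies within the range of the mature cultures for Mcpt8 and for the basophil sum of 4 chip A markers, which leaves out Cd200r3, and above it for both Hdc sets, and the mast cell list does not separate the stages.

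The probe sets most like the brighter Hdc set on chip A, by the root mean square difference over the 6 cultures after each set's own mean was taken off, were those of Emb (0.30), Hmgn3 (0.37), Ccn3 (0.43 and 0.46) and Tgfbi (0.46). Emb codes for embigin, a membrane glycoprotein, Hmgn3 for a nucleosome-binding protein, and Ccn3 and Tgfbi for secreted matrix-associated proteins. Emb had a log2 signal of 10.29 in M2, 11.30 in M4 and 10.59 in M6, against 13.65 in M1, 12.43 in M3 and 14.00 in M5. As with Hdc, M2 was the lowest of the mature cultures and M3 the lowest of the precursors. The likeness is a description over 6 cultures that share these 2 stages. Sets chosen by it would tend to share the order of the cultures, so that order adds nothing to it.

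Tph1, the first enzyme of serotonin synthesis, was bright in all cultures (1419524_at, chip A). Its signal was 80923 in M2, 63869 in M4 and 86951 in M6, against 54529 in M1, 65915 in M3 and 46626 in M5. The stages overlapped, since M4 lay below M3. The log2 signal averaged 16.23 ± 0.23 in the mature cultures and 15.75 ± 0.25 in the precursors (SD, n = 3 each). The mature cultures differed by 0.47 ± 0.22 on the log2 scale (SE), with an adjusted p of 0.748 in limma. The 95% interval of -0.0071 to 0.96 covers changes between 0.995-fold and 1.94-fold.

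Ddc, the second enzyme of serotonin synthesis, had a signal of 4853 in M2, 1852 in M4 and 5516 in M6, against 2941 in M1, 2723 in M3 and 1466 in M5 (1426215_at, chip A). M4 lay inside the range of the precursors and the other mature cultures above it. The log2 difference was 0.69 ± 0.42 (SE; 95% interval -0.24 to 1.63; adjusted p = 0.819, limma), and it ran from 0.38 without M5 to 1.19 without M4 (adjusted p = 0.413), with 0.40 without M6 and 0.36 with array weights. A second Ddc set (1430591_at, chip B) was too dim to be tested, at signals of 421 (M2), 439 (M4) and 515 (M6), against 251 in M1, 299 in M3 and 330 in M5. All 3 precursor values were under the chip B floor, so the mature cultures were at least 1.27-fold higher in that set. With no filter on dim sets the adjusted p of the second set was 0.640 (limma).

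Slc18a2, which loads both amines into granules, was bright in all 6 cultures (1437079_at, chip B). Its signal was 49469 in M2, 62853 in M4 and 70369 in M6, against 70493 in M1, 56562 in M3 and 36220 in M5. The ranges overlapped almost wholly, with M1 and M6, the female cultures, nearly equal at the top. The difference was 0.20 ± 0.28 (log2, SE; 95% interval -0.42 to 0.82; adjusted p = 0.923, limma). Its sign turned on station 1 alone (-0.51, M2 minus M1) and was 0.56 on station 2, and without M5 the difference was -0.068.

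Slc6a4, the serotonin uptake transporter, was above the chip A floor in M1 alone, with a signal of 947 (1417150_at). Elsewhere it was 112 in M2, 106 in M4 and 154 in M6, and 83.2 in M3 and 236 in M5. The set was not tested, since 1 of 6 arrays lay above the median. M1 was also the culture with the highest Mcpt8 and Pf4 signal, while Cd69 and Gp5 were highest in M2 and Vwf in M6. The part of other cell types in the Slc6a4 signal was not tested.

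Hnmt, which methylates histamine, gave almost no signal (1417702_a_at, chip A). It read 9.68 in M2, 42.7 in M4 and 50.5 in M6, against 23.9 in M1, 134 in M3 and 252 in M5. Only M5 passed the floor of 247, and by little, the other 5 cultures were under it, and the set was not tested.

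Maoa and Maob lie next to each other among the protein-coding genes of the X chromosome in RefSeq (GRCm38.p6) and code for closely related enzymes of the outer mitochondrial membrane. Maob was bright (1434354_at, chip B), with a signal of 55768 in M2, 51044 in M4 and 32333 in M6, against 76956 in M1, 59919 in M3 and 64384 in M5. All 3 mature cultures lay below all 3 precursors, as in 5.83% of all tested sets on chip B. The log2 signal averaged 15.46 ± 0.42 in the mature cultures and 16.03 ± 0.19 in the precursors (SD, n = 3 each), a difference of -0.56 ± 0.26 (log2, SE; 95% interval -1.13 to 0.0065; adjusted p = 0.762, limma). M6 was the lowest culture, and without it the difference was -0.32 (adjusted p = 0.926). Between the female cultures, M6 minus M1, the difference was -1.25, and between the male cultures -0.22, a stage by sex difference of -1.03 (adjusted p = 0.851, limma) that again rests on 1 female culture a stage.

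The Maoa sets read near their chips' median signal, and their differences had opposite signs. On chip B (1442676_at) the signal was 1010 in M2, 1699 in M4 and 922 in M6, against 915 in M1, 733 in M3 and 1380 in M5, a difference of 0.26 ± 0.46 (log2, SE; 95% interval -0.75 to 1.27; adjusted p = 0.941, limma). On chip A (1428667_at) it was 208 in M2, which is under the floor, 1016 in M4 and 967 in M6, against 837 in M1, 1241 in M3 and 1311 in M5, a difference of -0.83 ± 0.51 (log2, SE; 95% interval -1.95 to 0.30; adjusted p = 0.822, limma). The stages overlapped in both sets. The chip A value was -0.16 without M2. The chip B value moved with several cultures, at -0.015 without M4, 0.052 without M3 and 0.51 without M5.

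**Figure D3:**
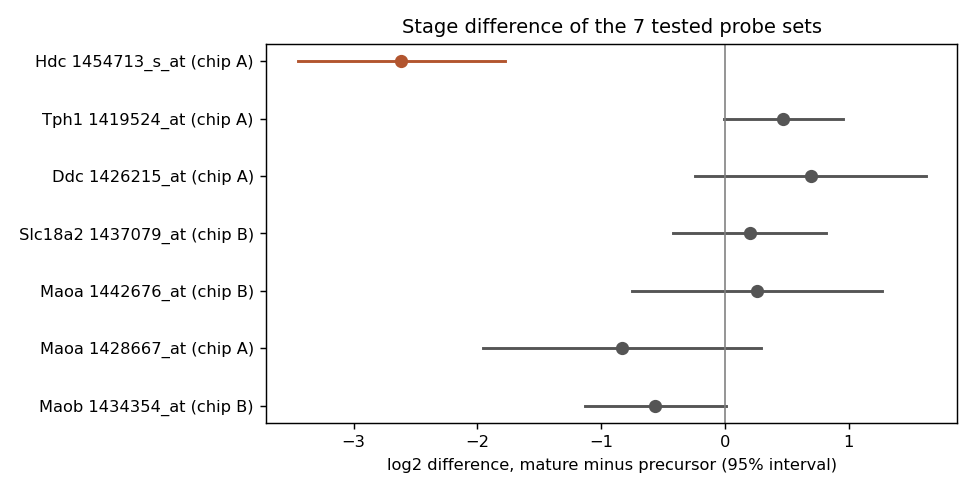
Log2 difference, mature minus precursor, of the 7 tested probe sets with the 95% interval of the limma fit, the set past the test in colour. The interval of Hdc runs from -3.45 to -1.78, and those of the other 6 sets include 0.

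The rest of the amine pathways did not pass the test in any of the 6 lists examined, which were written from pathway membership. Enzymes that make and renew tetrahydrobiopterin and pyridoxal phosphate, the cofactors of Tph1 and of Hdc and Ddc, were measured in 8 of 11 genes, with 0 higher, 0 lower (1 at an unadjusted p under 0.05, limma) and a median log2 difference of 0.26. Qdpr, which renews tetrahydrobiopterin, had a difference of 0.17 ± 0.23, and Pdxk, which makes pyridoxal phosphate, 0.40 ± 0.27 (log2, SE). Over the 2 tested Pdxk sets the mean difference was -0.13. Genes that supply histidine and tryptophan or divert them to other products were measured in 9 of 15, with 0 past the test (0 unadjusted) and a median of -0.41, among them Slc3a2 at 0.15 ± 0.27 and Slc43a2 at -0.41 ± 0.40. The tryptophan-degrading enzymes Ido1, Ido2 and Tdo2 and the histidine-degrading enzyme Hal were too dim to be tested.

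Of other amine transporters 3 of 7 were measured and 0 passed (0 unadjusted; median -0.17), with Slc29a4, a plasma membrane monoamine transporter, at -0.046 ± 0.21 and Slc6a2, the noradrenaline transporter, at -0.17 ± 0.25 (log2, SE). Of other amine enzymes 11 of 21 were measured and 0 passed (2 unadjusted; median 0.25). Akr1a1 and Aldh2, which reduce or oxidise the aldehydes that monoamine oxidases leave, had differences of 0.25 ± 0.23 and 0.55 ± 0.34. Over the 4 tested Akr1a1 sets the mean difference was -0.065. Sult1a1, a sulphotransferase of phenols and amines, came nearest to the threshold and was picked out after its values were seen. Its signal was 1901 in M2, 1096 in M4 and 6241 in M6, against 506 in M1, 429 in M3 and 109 in M5, or 2.64 ± 0.56 on the log2 scale (SE), with an adjusted p of 0.0883 in limma. Aanat, the other gene of this list at an unadjusted p under 0.05, went the other way and was also named after its values were seen. Its log2 difference was -1.15 ± 0.47 (SE; adjusted p = 0.661, limma), with M2 and M4 under the floor. Tph2, the tryptophan hydroxylase of neurons, was too dim to be tested.

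Receptors for the amines were measured in part. Of 4 histamine receptors 2 were measured and 0 passed (0 unadjusted; median 0.56), Hrh4, the receptor of blood cells, at 0.66 ± 0.37 and Hrh3 at 0.46 ± 0.56 (log2, SE). Hrh1 and Hrh2 were too dim to be tested. Of 14 serotonin receptors 5 were measured and 0 passed (0 unadjusted, median 0.052). Htr1b stood at 0.052 ± 0.29 and Htr3a, a subunit of an ion channel, at 0.35 ± 0.27. Over the 2 tested Htr1b sets the mean difference was -0.37.

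**Figure D4:**
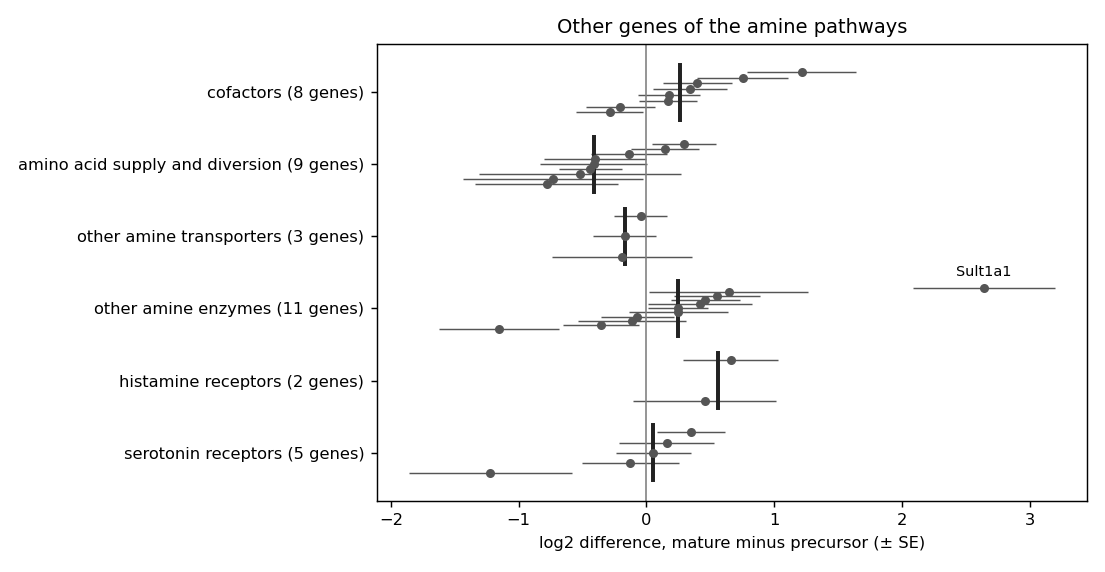
Log2 difference, mature minus precursor, of each measured gene of 6 lists of the amine pathways (points, with SE) and the median of each list (thick bar). No gene passed the test, and Sult1a1 stands farthest from 0 at 2.64.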

How the data were processed

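Total RNA of 6 mast cell cultures, 3 mature and 3 precursor, was read on 12 arrays, 1 of each chip a culture. The authors deposited a linear intensity for every probe set, made with MAS5 per the submitters' processing notes, whose version and settings are not given in the sources used here. The values show that each array had been scaled to a mean of 1500 without the top and bottom 2% of sets. The other deposited files are instrument records of the arrays (unit: other), read for the fluidics station. All arrays of a chip were scanned on the same day, so scan day was no block.

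The chips were fitted apart in R 4.3.3 with limma 3.58.1 (lmFit and eBayes with an intensity trend, no covariate) on all 11576 and 11880 sets that passed the filter, with Benjamini-Hochberg adjustment over all of them, chip by chip. The median signal of an array was 534 to 692 (chip A) or 816 to 913 (chip B), and the number of arrays limits the precision. Differences are mature minus precursor, and tests are two-sided. An exact test of 3 against 3 cannot reach the threshold of 0.05, and none was used. Gene names come from the platform annotation, in which 20380 sets of chip A and 14661 of chip B have 1 symbol, 691 and 245 several, and 1555 and 7605 none. The members, pathway lists and marker lists were chosen with earlier results of these data known. Of a list gene the brightest tested set stands for it, and marker sums add the floored signal of the brightest chip A set of each gene. All sets of the 8 genes are named, and of each pathway list the 2 brightest measured genes and any past the test. The fit was checked on simulated data. Alternatives were other scalings, floors, filters and blocks, no trend, array weights, and leaving out every culture by itself with the same sets and floor.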

Additional observations from a re-analysis of the deposited data

How the results depend on the processing

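Of the 8 genes, the count of sets called lower in the mature cultures was 1, and it was 0 with no filter on dim sets and ran from 0 to 1 with each culture left out in turn (0 without M2 or M5). The Hdc difference ran from -3.01 to -2.31 with a culture left out (adjusted p 0.00652 to 0.0621, limma) and was -2.62 with no filter, where its adjusted p was 0.396 with more sets in the adjustment and a larger standard error (0.46, against 0.38). It passed under the 10 other alternatives that kept all cultures. No set of the 8 genes was called higher under any alternative. With a culture left out, the difference of Slc18a2 ran from -0.068 to 0.41 and that of the Maoa set on chip B from -0.015 to 0.51, neither past the test. That of Ddc on chip A ran from 0.38 to 1.19 and was 0.36 with array weights, none past the test. Over the whole chips, the number of sets called lower, 51 on chip A and 8 on chip B, was 1 and 0 with no filter, and 18 to 54 and 2 to 6 with a culture left out. The number called higher, 10 and 3, was 0 and 0 with no filter, and 3 to 7 and 1 to 6 with a culture left out. On chip B the number lower was also 3 with no floor, 4 when sets were kept by a mean above the 60th percentile or the Phe set was a block, 2 with no trend and 5 with array weights or the station as a block. The number higher was 1 with no floor or no trend and 5 when the floor was the 50th percentile or sex was a block, and on chip A it was 6 with no trend and 5 with the Phe set as a block. Scan day could not be fitted as a block, since each chip had a single day, and the Maoa set on chip B was not kept by the mean filter. No paired analysis was possible because the labels give the stages no shared culture number. Signal near the floor limits Hnmt, Slc6a4, both dimmer sets of Hdc and Ddc and, in M2 alone, the chip A set of Maoa.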
